A study of Mus musculus with 60 samples.

Results

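The mRNA of 10 transcription factors of the naive pluripotency network was followed through mouse preimplantation development after fertilisation and after somatic cell nuclear transfer (NT). The genes were Nanog, Pou5f1 (encoding Oct4), Sox2, Klf2, Klf4, Klf5, Esrrb, Tfcp2l1, Tbx3 and Prdm14, chosen by name from the 27238 genes of the deposited expression table. Each has 1 row there, found by matching its Ensembl identifier to its symbol. At the 4-cell stage, where 27.8% of all genes tested differed between NTC and fertilised embryos and 21.1% between NTM and fertilised embryos, NT embryos held less Nanog and Tbx3 mRNA and more Klf4 mRNA. In NTM embryos 2 of 9 members were lower, against 17.8% of all genes. These 2 calls, Nanog and Tbx3, each held in only 1 of 6 fits without 1 library. At the blastula stage, with both NT types pooled, 1 of 9 members tested was called, against 18.5% of all genes. This was Sox2, which was lower in NT embryos. It was not called in either NT type alone, and the pooled call was lost when genes of low level were kept in.

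RNA was sequenced from single embryos of 3 types at 6 stages (1-cell, 2-cell, 4-cell, 8-cell, morula, blastula), with 3 libraries in each of the 18 embryo groups. In vivo embryos came from superovulated C57BL/6 females mated with DBA2 males. NTC embryos were rebuilt from enucleated oocytes of adult BDF1 females with nuclei of cumulus cells (CC), the somatic cells around the ovulated oocyte, taken from BDF1 females. NTM embryos were rebuilt in the same way with nuclei of serum-starved mouse embryonic fibroblasts (MEF) from BDF1 fetuses. Both NT types, but not the in vivo embryos, were activated with SrCl2 and cytochalasin B, exposed to the histone deacetylase inhibitor Scriptaid and cultured in G1 and G2 media. NT and in vivo embryos therefore differed in culture and drug exposure as well as in the source of the nucleus. The oocytes differed too, from BDF1 females for NT and from C57BL/6 females for in vivo embryos. These differences cannot be told apart here. CC and MEF donor cells gave 3 libraries each, for which the number of cells was not given in the sources used here. All samples are labelled with the BDF1 background. The embryos were picked by morphology. Replicates are separate embryos or donor cell samples, without further identity in the labels.

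As background, the naive pluripotency network is a set of transcription factors that bind each other's genes and keep inner cell mass cells and embryonic stem cells able to form every tissue of the body. Oct4 and Sox2 bind DNA as a pair at joined octamer and SOX elements, and Nanog, a homeodomain protein, occupies many of the same places. Klf2, Klf4 and Klf5 are zinc finger proteins that bind GC-rich boxes, and Esrrb (an orphan nuclear receptor), Tfcp2l1 (a grainyhead-type factor) and Tbx3 (a T-box factor) feed the LIF and Wnt signals into the network. Prdm14 is a zinc finger protein that restrains differentiation and DNA methylation. Several of these genes are also used by the first trophectoderm cells or by the oocyte, and Klf2, Klf4 and Tbx3 are active in many somatic cells.

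Values are RPKM (reads per kilobase of exon, scaled to the number of reads on genes in the library). The depth behind them, worked back from the smallest steps between values, was 5294167 to 47830132 reads on genes per library (median 15451429). It was 5294167 to 26281508 in the 54 embryo libraries and at least 31558140 in the 6 donor libraries. NTC 2-cell replicate 3, NTM 8-cell replicate 3 and in vivo 8-cell replicate 3 were the shallowest, at 5294167, 5758141 and 5802776 reads. Mitochondrial genes took 4.72 to 7.38% of the reads in the 4-cell in vivo libraries and 26.0 to 36.1% in the 4-cell NT libraries. Blastula in vivo libraries had 7730 to 7808 genes above 0, against 11498 to 13568 in the blastula NT libraries, whereas at the 4-cell stage the in vivo libraries had more (13576 to 13932 against 8997 to 11929). The part of these differences in the results was not tested. The 10 fibroblast markers summed to 5523 to 8281 RPKM in MEF and to 4.66 to 15.6 in CC, and 9 of 9 tested were higher in MEF. The summed cumulus markers did not set the donors apart (630 to 1433 RPKM in CC, 496 to 1210 in MEF), but Inha (191, 319 and 310 RPKM in CC; 0.402, 0.878 and 5.46 in MEF), Star and Cyp11a1 were higher in CC and Ptx3 in MEF, of 8 tested. Has2, another cumulus gene, was listed at 0 in all 3 CC libraries.

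Differences between groups are given as log2 fold changes on the log2(RPKM + 1) scale with their SE, where 1 stands for a doubling and changes at low levels are understated. They were tested with limma across all genes with a mean of at least 0.5 RPKM in the libraries compared, and p-values were adjusted by Benjamini-Hochberg. A gene is said to have risen or fallen where the adjusted p was below 0.05 and the change at least 1.

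In the donor cells 6 of the 10 genes were at or near 0. Nanog, Sox2 and Prdm14 were at 0 in all 6 donor libraries, and Pou5f1, Esrrb and Tfcp2l1 never passed 0.0119 RPKM there. Klf2, a factor also known from quiescent T cells and endothelium, was present in both donors, at 44.6, 9.59 and 16.3 RPKM in CC and 45.7, 60.02 and 95.9 in MEF. Klf4, at chr4:55527143-55532466 (minus strand, GRCm38), was high in MEF and not in CC, with 59.2, 25.8 and 47.5 RPKM in MEF and 0.211, 0.0207 and 0.0520 in CC. The groups did not overlap, and Klf4 was the 1 member of 4 tested that differed between donors (log2 fold change 5.29, SE 0.63, adjusted p = 0.00173), against 6.29% of all genes. Tbx3 stood at 5.63, 0.928 and 13.5 RPKM in MEF and at no more than 0.0081 in CC (2.51, SE 0.87, adjusted p = 0.162). Klf5 was near 0 except in CC replicate 3, at 12.5 RPKM. Among the 13 other Klf genes, Klf9 and Klf12 were also higher in MEF, of 11 tested.

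At the 1-cell stage the embryo holds mostly mRNA stored by the oocyte, and Pou5f1, Klf4, Klf2 and Esrrb were the members high enough there to be tested against in vivo embryos in both NT types. Tfcp2l1 was above 0 in all 9 libraries, at 1.81 RPKM or less, Tbx3 at 0.243 to 0.403 RPKM in NTC and 0.476 to 0.778 in NTM embryos, and Sox2 at up to 1.001 RPKM. Pou5f1 stood at 22.5, 6.05 and 15.8 RPKM in vivo, at 11.8, 10.4 and 11.6 in NTC and at 0.786, 0.452 and 0.458 in NTM embryos. Klf4 was at 11.2, 11.8 and 18.6 RPKM in vivo, at 10.9, 8.63 and 15.3 in NTC and at 1.71, 1.82 and 2.07 in NTM embryos. In both genes the NTM libraries lay apart from all 6 others. Against NTC embryos Pou5f1 was lower by 2.98 on the log2 scale (SE 0.31, adjusted p = 0.000502) and Klf4 by 2.11 (SE 0.32, adjusted p = 0.00268), and both kept this without any 1 library. These were 2 of the 5 members tested, against 19.8% of all genes. Pou5f1 averaged 0.565 RPKM in NTM embryos, and below 1 on the log2(RPKM + 1) scale. Against NTC or in vivo embryos it could therefore only be called lower in NTM embryos. Against in vivo embryos, where 1.28% of genes were called, Pou5f1 fell by 3.17 (SE 0.60, adjusted p = 0.0433) and Klf4 differed by -2.34 (SE 0.48, adjusted p = 0.0605). The Pou5f1 call was lost without in vivo replicate 2 or 3 or any NTM replicate, with an adjusted p of up to 0.220 and a fold change between -3.67 and -2.80. With the NT types pooled Pou5f1 was lower by 1.69 (-1.69, SE 0.41, adjusted p = 0.0487, 3.82% of genes called), a call kept without in vivo replicate 1 or 2 and lost without any other library (adjusted p of up to 0.125, fold change -2.18 to -1.31). No member of 4 tested differed between NTC and in vivo 1-cell embryos (0 at an unadjusted p below 0.05 by limma, 1.16% of genes called). The summed level of 8 oocyte genes was 4740 to 5146 RPKM in NTM, 3538 to 4055 in NTC and 2433 to 4789 in vivo. Any part of stored maternal mRNA in the Pou5f1 and Klf4 differences was not tested. Pou5f1 shares 317 exon bases (14.1% of its exon length) with the antisense gene Gm19553, and the counting is not stated to use strand, so reads of the pair could not be told apart.

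Against the donor cells Klf4 went in opposite directions in the NT types at the 1-cell stage, whereas Klf2 was lower and Esrrb higher in both. In NTC embryos Klf4 was higher than in CC (log2 fold change 3.497, SE 0.30, adjusted p = 0.000258) and Klf2 lower (-3.01, SE 0.76, adjusted p = 0.0188). In NTM embryos both were lower than in MEF, Klf2 by -4.02 (SE 0.46, adjusted p = 0.000363) and Klf4 by -3.90 (SE 0.37, adjusted p = 0.000160). Klf2 stood at 2.41, 1.76 and 5.87 RPKM in the 1-cell NTM embryos and at 4.66, 0.340 and 1.12 in the 1-cell NTC embryos. Pou5f1 and Esrrb were higher in NTC embryos than in CC, and Esrrb was higher in NTM embryos than in MEF. Esrrb in NTC embryos was at least 116-fold above the level of 3 reads per CC library. The calls were 4 of 5 members tested for NTC (50% of genes) and 3 of 4 for NTM embryos (55.2%). Klf4, Pou5f1 and Esrrb averaged at most 0.0944 RPKM in CC, and Esrrb 0.0015 RPKM in MEF. Against these donors they could only be called higher in the embryos. The Klf2 call in NTC embryos was lost without NTC replicate 2 or 3 (adjusted p of up to 0.0785, fold change -3.59 to -2.42).

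Printed here are the 250 bases ahead of the annotated start sites of 3 members, because Nanog and Tfcp2l1 had the most similar course of any pair over development and Sox2 was the member listed at 0 in every NTC library from the 2-cell stage to the morula. The sequences are from RefSeq (GRCm38.p6), where 7 of the 10 members had a promoter entry and Klf5, Tbx3 and Prdm14 had none. Nanog is chr6:122707239-122707488, Sox2 is chr3:34649745-34649994 and Tfcp2l1 is chr1:118627695-118627944, all on the plus strand, and the RefSeq start of Sox2 lies ahead of the start in the gene annotation used for the coordinates of the members. Capitals mark the letters ATGCAAA (the octamer core of Oct4 sites), ACAATG (a SOX core) and GGGCGTGG (a KLF box) on either strand.
Nanog: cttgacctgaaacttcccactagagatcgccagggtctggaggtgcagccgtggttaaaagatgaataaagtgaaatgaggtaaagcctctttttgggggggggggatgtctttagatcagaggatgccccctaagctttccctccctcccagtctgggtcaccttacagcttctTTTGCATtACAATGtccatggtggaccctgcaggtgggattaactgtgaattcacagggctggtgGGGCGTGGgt
Sox2: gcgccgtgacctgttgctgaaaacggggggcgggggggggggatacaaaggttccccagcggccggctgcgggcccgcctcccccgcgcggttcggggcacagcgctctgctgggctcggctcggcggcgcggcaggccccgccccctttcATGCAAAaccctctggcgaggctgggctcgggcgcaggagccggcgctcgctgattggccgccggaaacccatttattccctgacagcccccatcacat
Tfcp2l1: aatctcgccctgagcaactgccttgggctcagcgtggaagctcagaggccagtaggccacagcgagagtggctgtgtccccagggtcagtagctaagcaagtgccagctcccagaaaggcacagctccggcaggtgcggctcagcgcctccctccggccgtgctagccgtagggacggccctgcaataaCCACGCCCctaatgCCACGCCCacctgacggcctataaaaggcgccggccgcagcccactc
The Nanog window held all 3 motifs, with the octamer letters on the minus strand at bases -75 to -69 from the start, the SOX letters at -67 to -62 and the KLF box at -10 to -3. The Sox2 window held the octamer letters at -99 to -93. The Tfcp2l1 window held the KLF box on the minus strand at -61 to -54 and again at -47 to -40. No 2 matches overlapped. In 27025 promoter windows of the same length, the octamer core was found in 4.06%, the SOX core in 10.99% and the KLF box in 4.84%. A further GC box, GGGGCGGGG, was searched but not capitalised. It was matched in the windows of Sox2, Pou5f1, Klf2 and Klf4 and in 10.52% of all windows. TCAAGGT, the core bound by Esrrb, was matched in the Pou5f1 window and in 2.89% of all, while the T-box letters AGGTGTGA (1.14% of all) and the longer Esrrb site TCAAGGTCA (0.366%) were matched in none of the 7. These matches describe the letters in the windows and do not show binding.

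After fertilisation the step with the most rises among the members was that from 2 to 4 cells. Of 9 members tested, 5 rose (Nanog, Klf2, Klf5, Tbx3 and Prdm14) and none fell, where 52.2% of all genes tested were called, 31.4% higher and 20.8% lower. Klf2 and Prdm14, at 2-cell means of 0.159 and 0.178 RPKM, passed the filter through the 4-cell libraries. Nanog, Tbx3 and Klf5 had 2-cell means of 0.522, 0.647 and 1.65 RPKM. On the log2(RPKM + 1) scale all 5 averaged below 1 at the 2-cell stage, so a fall of at least 1 was not possible. They could only be called as rises, and the direction of these calls was fixed. All 5 calls held without any 1 library. Sox2 was too low to be tested. The step also separates embryos that run on oocyte mRNA from those that run on their own, and 7 of 8 oocyte genes fell in it.

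**Figure D1:**
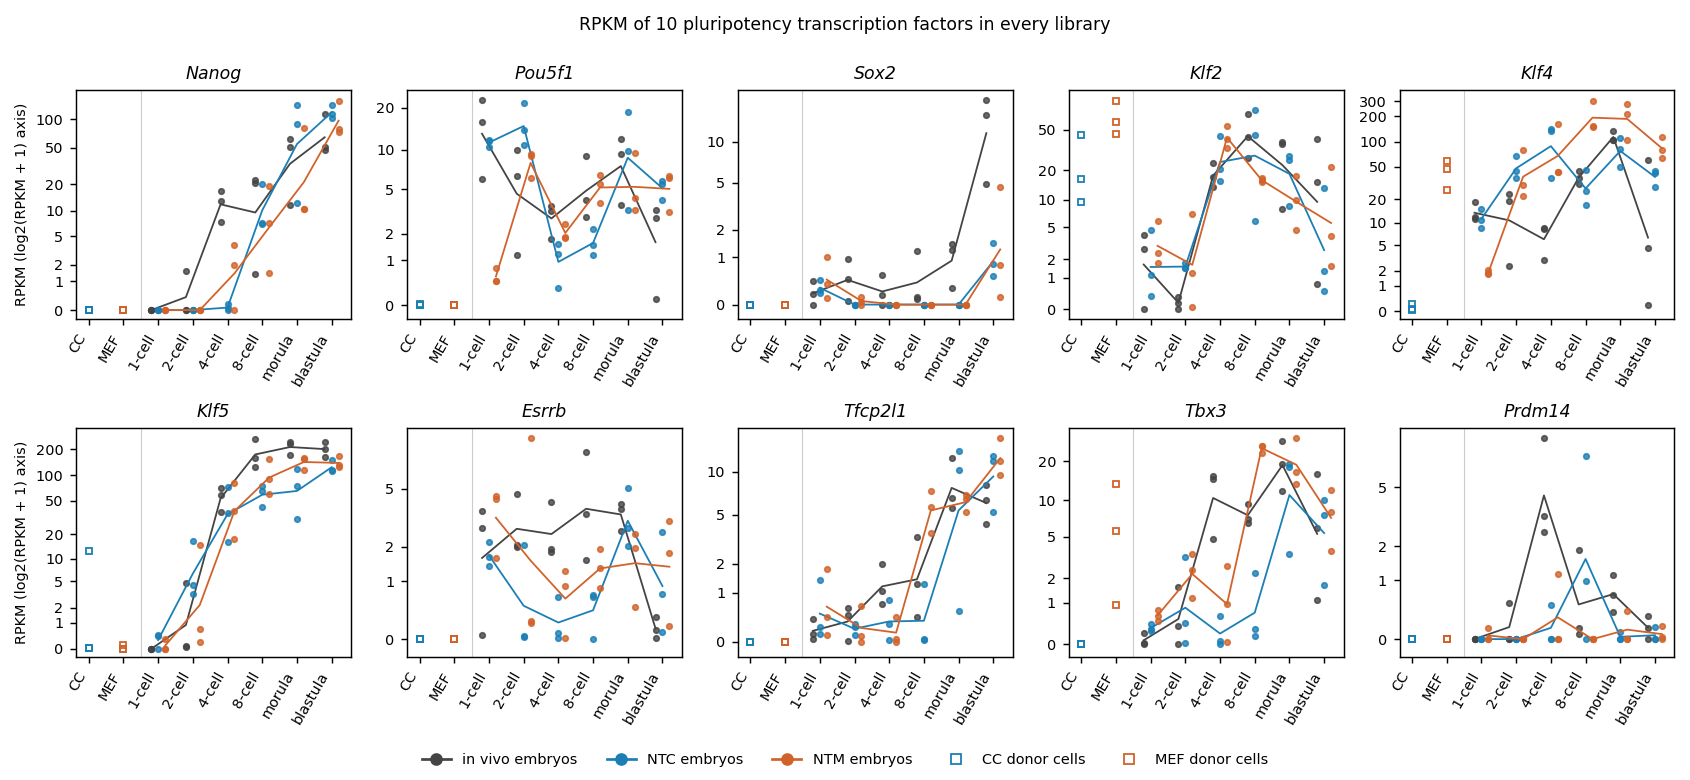
Levels of the 10 pluripotency factors by stage, in RPKM on a log2(RPKM + 1) axis, in in vivo, NTC and NTM embryos and the donor cells. Points are single libraries and lines join the means of 3 libraries on that scale. Nanog, Klf2, Klf5, Tbx3 and Prdm14 are higher at the 4-cell than at the 2-cell stage in vivo.

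Nanog, at chr6:122707489-122714633 (plus strand, GRCm38), was at 0, 0 and 1.57 RPKM in vivo at the 2-cell stage and at 7.50, 13.1 and 17.0 at the 4-cell stage. The groups did not overlap (log2 fold change 3.24, SE 0.52, adjusted p = 0.00168). Parts of the Nanog transcript, 451 bases in all, occur at 95% identity or more in 61 other genes, Nanog-ps1 among them, so a share of its reads could belong elsewhere. Prdm14, at chr1:13113457-13127163 (minus strand), was at 0, 0.533 and 0 RPKM in the 2-cell and at 3.26, 9.74 and 2.56 in the 4-cell embryos (2.24, SE 0.51, adjusted p = 0.00849). It then fell by 1.86 (SE 0.59, adjusted p = 0.0358) to 1.85, 0.0564 and 0.134 RPKM at the 8-cell stage. That fall was not called without any 1 of 5 of the 6 libraries (all but in vivo 8-cell replicate 1), with an adjusted p of up to 0.110 and a fold change between -2.32 and -1.37.

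Klf5, at chr14:99298691-99315036 (plus strand), is a factor that both the trophectoderm and the inner cell mass need. It rose from 0.0624, 0.0836 and 4.82 RPKM at the 2-cell stage to 37.3, 69.7 and 58.8 at the 4-cell stage (4.85, SE 0.71, adjusted p = 0.00109). It rose again to 157.5, 264.5 and 125.3 at the 8-cell stage (1.68, SE 0.36, adjusted p = 0.00750) and stood between 163.5 and 242.2 in the 6 morula and blastula libraries. Its RPKM rests on a length of 1721 bases, against 5201 in the annotation, so its levels read 3.02 times higher than per annotated length and are not set against those of other genes.

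Klf2, at chr8:72319033-72321656 (plus strand), rose from 0.320, 0.156 and 0 RPKM to 23.8, 17.0 and 13.6 at the 4-cell stage (4.02, SE 0.37, adjusted p = 0.000142). It reached 71.0, 42.7 and 26.7 RPKM at the 8-cell stage (1.25, SE 0.42, adjusted p = 0.0447), a call that was lost without any 1 of 5 of the 6 libraries (all but in vivo 8-cell replicate 3), with an adjusted p of up to 0.140 and a fold change of 0.90 to 1.59. Klf4 took a different course. It was at 19.1, 23.0 and 2.42 RPKM in 2-cell and at 2.97, 8.61 and 8.24 in 4-cell embryos, then rose to 44.0, 30.8 and 36.5 at the 8-cell stage (2.42, SE 0.43, adjusted p = 0.00330) and stood at 132.7, 103.8 and 105.7 in the morula. The 3 blastula libraries were spread over 4.57, 60.8 and 0.171 RPKM, and the change of -3.95 from the morula was not called (SE 1.27, adjusted p = 0.171). Tbx3, at chr5:119670669-119684724 (plus strand), rose from 1.57, 0.0109 and 0.356 to 4.73, 15.5 and 14.7 RPKM at the 4-cell stage (2.90, SE 0.57, adjusted p = 0.00429), and its highest library was in the morula, at 28.6 RPKM.

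The 4-cell to 8-cell step in vivo, with 3 of 9 members higher and 1 lower, ran against the table as a whole, in which 43.7% of genes were called, 4.40% higher and 39.3% lower, with a median change of -1.05. When libraries were scaled by the median of gene ratios, the split became 1317 higher and 1772 lower in place of 458 and 4096, with a median of -0.18. Klf2, Klf4 and Klf5 stayed called under that scaling, and Prdm14 did not.

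Among the 27 partner genes in the table (other pluripotency markers and signalling genes), 12 rose and 3 fell of 19 tested in vivo at the step from 2 to 4 cells, with a list median of 2.73 against 0.36 over all genes. Dppa5a rose by 9.10, Fbxo15 by 7.95 and Dppa3 (Stella, a protector of maternal methylation) by 7.86, whereas Tcl1, Gbx2 and Il6st fell. At the same step Klf3, Klf8 and Klf9 rose and Klf7 fell, of 9 other Klf genes tested. Of the trophectoderm list Tfap2c, Tead4 and Hand1 rose and Gata3 fell, of 7 tested. Of the primitive endoderm list Dab2 fell of 3 tested, and of the post-implantation epiblast list Lef1 fell of 3 tested.

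No member of those tested changed from the 1-cell to the 2-cell stage in vivo (0 of 5 by limma, with 0 at an unadjusted p below 0.05, and 0% of genes called, with 615 of 10854 at an unadjusted p below 0.05), nor at the 2 last steps. From the 8-cell stage to the morula 0 of 10 were called (3 at an unadjusted p below 0.05, Klf4, Tfcp2l1 and Tbx3, 0.0116% of genes called) and from the morula to the blastula 0 of 9 (3, Sox2, Klf4 and Esrrb, 0.801% called). Tfcp2l1, Esrrb and Pou5f1 were called at no in vivo step. Tfcp2l1, at chr1:118627945-118685168 (plus strand), was at 0.701, 1.05 and 2.01 RPKM in 4-cell embryos, at 6.59, 5.64 and 12.4 in the morula and at 8.16, 6.36 and 4.25 in the blastula. Esrrb, at chr12:86361117-86521628 (plus strand), was between 1.56 and 8.34 RPKM in the 12 libraries from the 2-cell stage to the morula, and at 0.0105, 0.116 and 0.302 in the blastula. Pou5f1, at chr17:35506018-35510772 (plus strand), was at 9.94, 6.37 and 1.16 RPKM in the 2-cell embryos, at 3.69, 11.96 and 9.27 in the morula and at 2.86, 0.104 and 3.33 in the blastula. Blastula replicate 2, with the least Pou5f1, was also the library with the most Nanog (113.0 RPKM) and Klf4 in its group.

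In NT embryos the members that rose at the 2-cell to 4-cell step were Klf2 and Klf5, in both types. In NTC embryos Klf2 rose by 3.31 (SE 0.50, adjusted p = 0.00151), Klf5 by 2.27 (SE 0.71, adjusted p = 0.0350), and Pou5f1 fell by 3.02 (SE 0.51, adjusted p = 0.00231), of 5 members tested and against 36.6% of all genes. In NTM embryos Klf2 rose by 4.02 (SE 0.82, adjusted p = 0.00816) and Klf5 by 3.60 (SE 1.06, adjusted p = 0.0355), of 7 tested and against 26.4% of genes. The Klf2 calls held without any 1 library in both types. The Klf5 calls did not. In NTC embryos it was lost without 2-cell replicate 2 or 3 or 4-cell replicate 1 or 3 (adjusted p of up to 0.135, fold change 1.75 to 2.90), and in NTM embryos without any library but 2-cell replicate 1 (up to 0.150, 2.90 to 4.76). Pou5f1 in NTC embryos went from 13.9, 21.5 and 10.8 RPKM to 1.58, 1.202 and 0.304, without overlap. Of the partner genes, 5 rose and 4 fell of 17 tested in NTC, and 6 rose and 3 fell of 18 tested in NTM embryos.

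In both NT types Klf4 rose between the 1-cell and 2-cell stages. It reached 67.4, 43.7 and 36.9 RPKM in 2-cell NTC embryos (1.98, SE 0.33, adjusted p = 0.00661) and 80.1, 22.2 and 30.005 in 2-cell NTM embryos (3.76, SE 0.56, adjusted p = 0.00582), and both calls held without any 1 library. Klf5 also rose at this step in NTC embryos, to 16.5, 3.26 and 4.39 RPKM (2.54, SE 0.59, adjusted p = 0.0236), and Pou5f1 in NTM embryos, to 9.26, 8.92 and 6.11 RPKM (2.53, SE 0.54, adjusted p = 0.0236). Each was lost without any 1 of its 3 1-cell libraries, with an adjusted p of up to 0.113 and 0.129 and fold changes of 1.92 to 2.94 and 2.43 to 2.70. These were 2 of 6 members tested in NTC (13.5% of genes) and 2 of 7 in NTM embryos (9.40%). Klf5 in 1-cell NTC embryos (mean 0.283 RPKM) and Pou5f1 in 1-cell NTM embryos (0.565) averaged below 1 on the log2(RPKM + 1) scale. These 2 could only be called as rises. Tested as a difference from the in vivo step, no member was called (for NTC 1 at an unadjusted p below 0.05, Klf4, and 0.0256% of genes called; for NTM 2, Klf4 and Pou5f1, and 0.204%). Between NT and in vivo 2-cell embryos no member of 6 tested differed. In NTC embryos 2 had an unadjusted p below 0.05, Klf4 and Klf5, and 0.152% of genes were called, whereas in NTM embryos none had one and 0.141% were called.

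From the 4-cell to the 8-cell stage no member was called in either NT type. In NTC embryos 0 of 7 were called (2 at an unadjusted p below 0.05, 0.0564% of genes called), with Nanog at a change of 3.39 (SE 0.68, adjusted p = 0.0934). In NTM embryos 0 of 8 were called (4 at an unadjusted p below 0.05, 0.363% called), with Tbx3 at 3.74 (SE 0.68, adjusted p = 0.0505). The later steps had no member called either. From the 8-cell stage to the morula, 6 of 9 members in NTC and 0 of 8 in NTM embryos had an unadjusted p below 0.05 and 0% of genes were called. From the morula to the blastula these counts were 2 of 8 (7.16% of genes called) and 3 of 9 (4.22%).

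**Figure D2:**
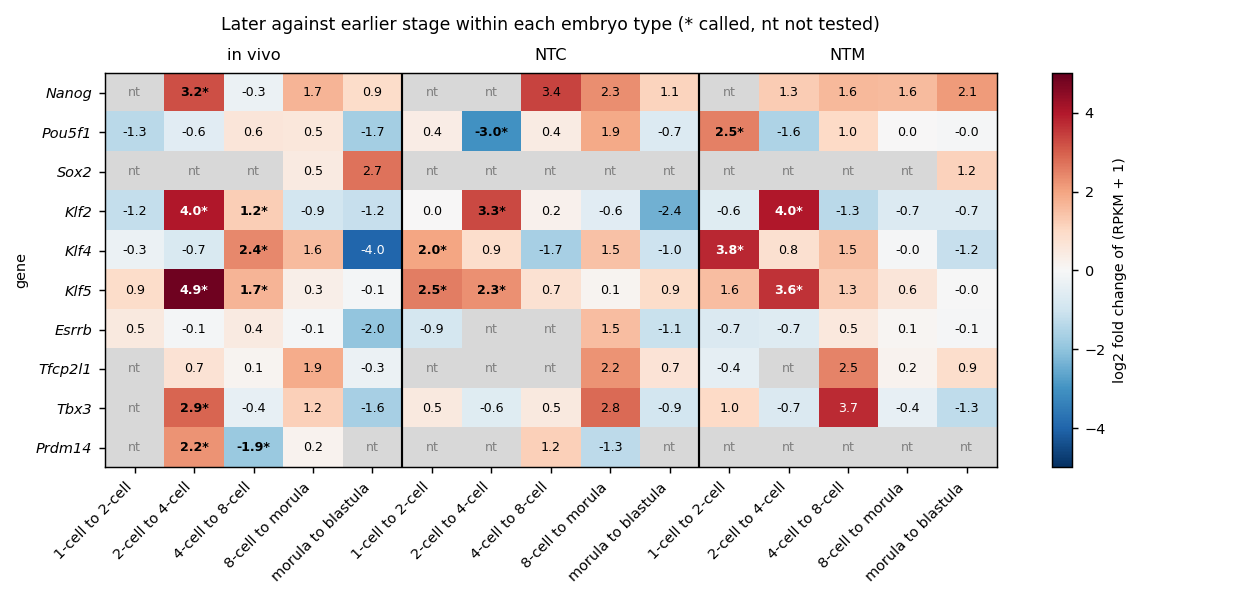
Change of each member at each step between stages, printed and coloured as log2 fold change of (RPKM + 1), in in vivo, NTC and NTM embryos with 3 libraries per group. Stars mark values that passed the test and nt marks genes too low to be tested. The in vivo 2-cell to 4-cell column has 5 starred rises, against 2 in each NT type.

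At the 4-cell stage several of the members that rose in vivo were lower in NT embryos. Nanog was at 7.50, 13.1 and 17.0 RPKM in vivo, at 0.0467, 0.151 and 0 in NTC embryos (1, 4 and 0 reads) and at 3.87, 0 and 1.96 in NTM embryos. Tbx3 was at 4.73, 15.5 and 14.7 RPKM in vivo, at 0.601, 0.0637 and 0 in NTC and at 2.68, 0.0309 and 0.9499 in NTM embryos. Prdm14 was at 3.26, 9.74 and 2.56 RPKM in vivo, at 0.490, 0 and 0 in NTC and at 0, 0 and 1.16 in NTM embryos. In all 3 genes every NT library lay below every in vivo library.

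In NTC embryos Nanog was lower by 3.60 (-3.60, SE 0.46, adjusted p = 0.000683), Tbx3 by 3.25 (-3.25, SE 0.55, adjusted p = 0.00277) and Prdm14 by 2.26 (-2.26, SE 0.55, adjusted p = 0.0162). Esrrb was also lower (-1.52, SE 0.49, adjusted p = 0.0466), at 0.658, 0.014 and 0.0806 RPKM against 1.84, 4.14 and 1.94 in vivo. With Klf4, higher in NTC embryos, 5 of 9 members tested were called (1 higher, 4 lower), against 27.8% of all genes (7.40% higher, 20.4% lower). The 4 lower members averaged 0.0658 to 0.251 RPKM in NTC embryos and passed the filter through the in vivo libraries. They could only be called lower, so the direction of these calls was fixed. The Nanog, Tbx3 and Klf4 calls held without any 1 library. Prdm14 was lost without in vivo replicate 2 (adjusted p = 0.0539), and Esrrb was lost without any library but NTC replicate 1 (adjusted p of up to 0.136, fold change -1.74 to -1.24). Both were also lost when genes of low level were not filtered out (adjusted p = 0.0591 for Prdm14). Esrrb was lost too under scaling by the median of gene ratios, on nuclear genes alone and with the replicate number as a block (adjusted p of up to 0.102 over these settings).

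NTM embryos, compared with the same 3 in vivo libraries, had 3 of 9 members called (1 higher, 2 lower), against 21.1% of all genes (3.33% higher, 17.8% lower). Nanog was lower (-2.41, SE 0.70, adjusted p = 0.0457) and so was Tbx3 (-2.55, SE 0.70, adjusted p = 0.0360), while Prdm14 was at -2.08 (SE 0.63, adjusted p = 0.0516). The Nanog and Tbx3 calls were each lost without any library but NTM replicate 1, with an adjusted p of up to 0.164 for Nanog (fold change -2.91 to -1.77) and 0.143 for Tbx3 (-3.04 to -2.09). They were also lost when libraries were scaled by the median of gene ratios (adjusted p = 0.137 and 0.106) or on nuclear genes alone (0.101 and 0.0755). With the 6 NT libraries pooled, Nanog (-3.00, SE 0.56, adjusted p = 0.00253), Tbx3 (-2.90, SE 0.56, adjusted p = 0.00315) and Prdm14 (-2.17, SE 0.50, adjusted p = 0.00833) were lower also without any 1 of the 9 libraries, against 26.6% of genes called. The pooled Esrrb call (-1.31, SE 0.44, adjusted p = 0.0497) was kept without NTC replicate 1 or NTM replicate 3 and lost without any other library (adjusted p of up to 0.182, fold change -1.47 to -1.04). Of 6 other processing settings, 1 kept this Esrrb call (adjusted p of up to 0.157). Between NTM and NTC 4-cell embryos no member of 6 tested differed by limma (0 at an unadjusted p below 0.05, 0% of genes called).

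Klf4 went the other way. At the 4-cell stage it was at 2.97, 8.61 and 8.24 RPKM in vivo, at 140.6, 36.0 and 133.9 in NTC embryos and at 43.0, 163.2 and 43.3 in NTM embryos, so that the lowest NT library was above the highest in vivo library. The difference was 3.66 in NTC (SE 0.59, adjusted p = 0.00214) and 3.28 in NTM embryos (SE 0.66, adjusted p = 0.0122). The NTM call was lost without in vivo replicate 1 (adjusted p = 0.0580) and the pooled difference, 3.47 (SE 0.60, adjusted p = 0.00160), held without any 1 library. The fibroblast markers, which summed to at least 5523 RPKM in MEF, summed to 0.198 to 2.88 RPKM in 4-cell NTM and to 0 to 1.78 in 4-cell NTC embryos. The CC donors of NTC embryos themselves had no more than 0.211 RPKM of Klf4. Any part of the donor cells in the Klf4 level was not tested.

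**Figure D3:**
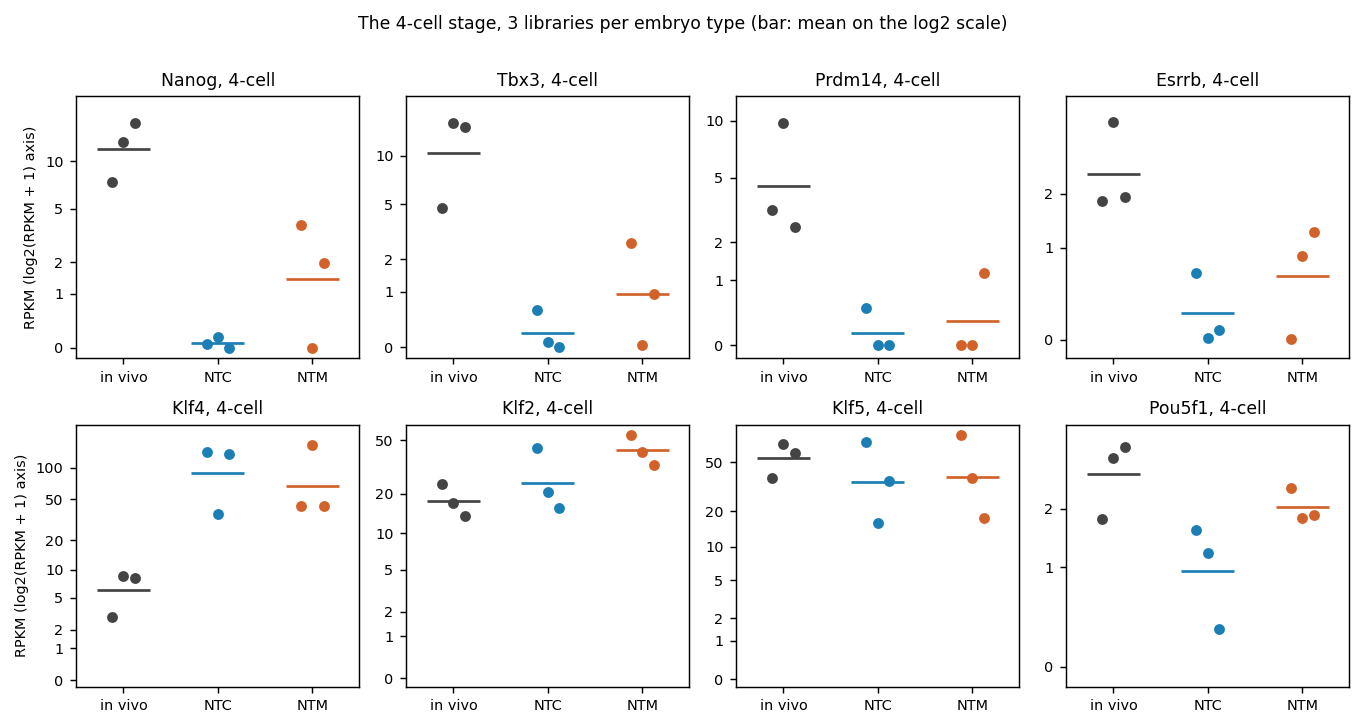
Levels of 8 members at the 4-cell stage in RPKM, on log2(RPKM + 1) axes that start near 0, with 1 point per library and a bar at the mean on that scale. All NT libraries lie below the in vivo libraries for Nanog, Tbx3, Prdm14 and Esrrb and above them for Klf4, and Klf2, Klf5 and Pou5f1 overlap between in vivo and at least 1 NT type.

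Klf2 and Klf5 were not called at this stage. Klf2 was at 23.8, 17.0 and 13.6 RPKM in vivo, at 43.7, 20.7 and 15.5 in NTC (0.43) and at 54.9, 41.1 and 32.9 in NTM embryos (1.202, adjusted p = 0.0821). Every NTM library lay above every in vivo library, and Klf2 was called higher in NTM embryos after scaling by the median of gene ratios (1.95, adjusted p = 0.0317) and on nuclear genes alone (1.65, adjusted p = 0.0428). Klf5 was at 37.3, 69.7 and 58.8 RPKM in vivo, at 72.4, 15.9 and 35.4 in NTC and at 81.8, 37.5 and 17.4 in NTM embryos, with overlapping ranges. Of the 13 further Klf genes 9 were tested, of which 1 was higher and 3 lower in each NT type. The higher one was Klf9, at 5.66, 6.09 and 9.03 RPKM in vivo, at 50.6, 21.7 and 32.2 in NTC and at 42.0, 57.0 and 28.5 in NTM embryos. The lower ones were Klf8, Klf16 and Klf17.

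Of the partner genes, in NTC embryos 11 of 17 tested were lower and 0 higher, against 20.4% of all genes lower, with a list median of -1.80 against -0.39 over all genes, and in NTM embryos 6 of 19 were lower, 13 were not called and 0 were higher, against 17.8% of all genes lower (list median -1.83 against -0.69). Dppa3 was at 12402, 8284 and 9154 RPKM in vivo, at 47.9, 17.8 and 28.4 in NTC and at 25.3, 51.4 and 37.3 in NTM embryos. Dppa5a, an RNA-binding protein of early embryos, was at 1910, 1381 and 1764 RPKM in vivo, at 19.97, 13.9 and 10.6 in NTC and at 38.6, 29.4 and 30.8 in NTM embryos. Tdgf1 (Cripto, a Nodal co-receptor) was at 16.6, 19.8 and 31.9 RPKM in vivo, at 0.839, 0.064 and 0.074 in NTC and at 0.110, 0.0390 and 14.0 in NTM embryos, where it was not called (adjusted p = 0.0633). Of 5 trophectoderm genes tested 2 were lower in NTC embryos, whereas none of 6 was called in NTM embryos. Of the oocyte genes 1 of 8 was lower in NTC and 1 higher in NTM embryos, and the list summed to 86.8 to 116 RPKM in vivo, 73.0 to 140 in NTC and 88.9 to 547 in NTM embryos. No primitive endoderm or post-implantation epiblast gene was called in NTC embryos, of 3 tested in each list.

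Both contrasts lean towards lower values. In NTC embryos 848 genes were higher and 2341 lower, and with libraries scaled by the median of gene ratios 1241 and 1735. In NTM embryos these were 371 and 1984, and 660 and 1095.

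At the 8-cell stage the libraries of the NT types lay apart in Klf4 and Tbx3. Klf4 was at 44.0, 30.8 and 36.5 RPKM in vivo, at 25.6, 16.9 and 45.8 in NTC and at 153.7, 151.1 and 306.6 in NTM embryos. Tbx3 was at 9.38, 7.06 and 6.48 RPKM in vivo, at 0.279, 2.27 and 0.155 in NTC and at 23.2, 26.1 and 26.2 in NTM embryos. For Tbx3 the 3 embryo types did not overlap, with NTC below and NTM above in vivo. The NTM to NTC difference of 3.95 in Tbx3 passed the test (SE 0.56, adjusted p = 0.0473), as 1 of 9 members and against 0.0507% of all genes (5 genes of 9853). It was lost without any library but NTC replicate 2, with an adjusted p of up to 0.329 at fold changes of 3.67 to 4.43. Adding 0.1 RPKM in place of 1 before the log2, or keeping genes of low level in, also lost it (adjusted p of up to 0.395). Tbx3 averaged 0.901 RPKM in NTC embryos, and below 1 on the log2(RPKM + 1) scale. It could only be called higher in NTM embryos. Klf4 differed by 2.78 (SE 0.45, adjusted p = 0.0805) and Tfcp2l1 by 2.24 (SE 0.60, adjusted p = 0.184).

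Against in vivo embryos, where 2.02% of genes were called, Klf4 was higher in 8-cell NTM embryos (2.36, SE 0.36, adjusted p = 0.0155), the 1 member called of 8 tested, and Tbx3 was at 1.61 (SE 0.40, adjusted p = 0.0727). The Klf4 call was lost without in vivo replicate 2 or any NTM replicate (adjusted p of up to 0.0789, fold change 2.02 to 2.53). It was also lost when genes of low level were kept in or 1 model was fitted over all 20 groups (adjusted p of up to 0.119). The fibroblast markers summed to 0.180 to 3.21 RPKM in these NTM libraries, and any part of the donor cells was not tested. In NTC embryos 0 of 9 members were called by limma (3 at an unadjusted p below 0.05, 1.46% of genes called), with Klf5 at -1.54 (SE 0.41, adjusted p = 0.0826) and Tbx3 at -2.34 (SE 0.67, adjusted p = 0.102). Klf5 was at 74.7, 65.3 and 41.8 RPKM in NTC and at 157.5, 264.5 and 125.3 in vivo, without overlap, and it was called with libraries scaled by the median of gene ratios (-2.03, adjusted p = 0.0247).

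Nanog at the 8-cell stage was at 7.29, 19.9 and 7.02 RPKM in NTC and at 19.3, 1.46 and 7.13 in NTM embryos, against 20.5, 22.2 and 1.38 in vivo. Every NT library lay below in vivo replicates 1 and 2. They were within the in vivo range only through replicate 3, a shallow library of 5802776 reads. Prdm14 was at 7.65, 0.977 and 0 RPKM in NTC embryos and at 0 in all 3 NTM libraries, against 1.85, 0.0564 and 0.134 in vivo, where replicate 1 stood above the others. In the morula no member was called against in vivo embryos for NTC (1 at an unadjusted p below 0.05, Klf5, 0.0321% of genes called) or for NTM (0, 0.168%). With both NT types pooled none was called at the 2-cell stage (0 of 6, 1 at an unadjusted p below 0.05, 0.338% of genes called), the 8-cell stage (0 of 9, 3, 3.61%) or in the morula (0 of 8, 1, 0.693%).

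**Figure D4:**
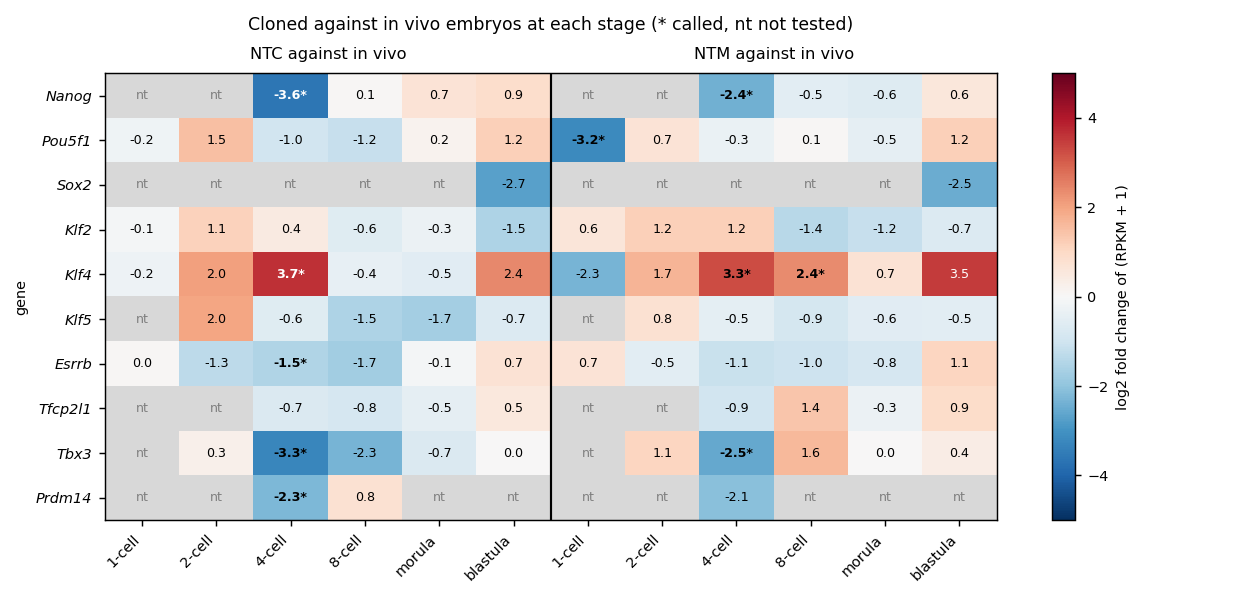
NT against in vivo embryos at each stage, printed and coloured as log2 fold change of (RPKM + 1), with 3 libraries per group. Stars mark values that passed the test and nt marks genes too low to be tested. The 4-cell columns hold 5 stars for NTC and 3 for NTM, of 9 members tested in each. Over all genes 27.8% and 21.1% were called there. NTC and NTM are set against the same in vivo libraries.

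Sox2, at chr3:34650405-34652461 (plus strand), was low in NT embryos up to the blastula. In vivo it was below 1.5 RPKM up to the morula and then at 19.2, 4.89 and 15.2 RPKM in the blastula. In NTC embryos it was at 0 in all 12 libraries from the 2-cell stage to the morula and at 0.516, 1.48 and 0.809 RPKM in the blastula. In NTM embryos it was at 0 in the 9 libraries from the 4-cell stage to the morula and at 4.63, 0.125 and 0.799 RPKM in the blastula. The highest NT blastula, at 4.63 RPKM, was just below the lowest in vivo blastula, at 4.89.

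With both NT types pooled the blastula difference passed the test (-2.59, SE 0.63, adjusted p = 0.01997), held without any 1 of the 9 libraries, and was the 1 call among the members tested, against 18.5% of all genes. When genes of low level were not filtered out the call was lost. Taken singly the difference was -2.72 in NTC (SE 0.69, adjusted p = 0.0526) and -2.47 in NTM embryos (SE 0.88, adjusted p = 0.129). In these whole embryos fewer Sox2-expressing cells and less Sox2 mRNA per cell cannot be told apart. In the morula the in vivo mean was at least 12.9-fold above NTC and 9.97-fold above NTM embryos, with 3 reads per NT library as the floor.

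Most genes called in the pooled blastula comparison were higher in NT embryos (1624 higher, 189 lower, median change 0.79, and 1167 and 480 after scaling by the median of gene ratios), so that Sox2 was among the fewer lower ones. Of the partner genes Tdgf1 (-3.20), L1td1 (-2.28) and Dppa5a (-1.45) were lower and Lin28a was higher (1.44), of 19 tested. Tdgf1 was at 44.0, 16.0 and 8.502 RPKM in vivo, at 4.04, 0.02 and 0 in NTC and at 15.0, 0.0590 and 0 in NTM blastulas. Of the other Klf genes, Klf9, Klf11 and Klf17 were higher, of 10 tested. In each NT type alone 0 of 19 partner genes and 0 of 9 trophectoderm genes were called. The trophectoderm genes summed to 430 to 1101 RPKM in vivo, 170 to 755 in NTC and 297 to 694 in NTM blastulas, and the primitive endoderm genes to 48.9 to 108, 73.2 to 141 and 97.4 to 197. The post-implantation epiblast genes summed to 6.75 to 48.5, 6.43 to 14.8 and 7.37 to 37.0 RPKM. Oocyte genes, at 0 to 0.117 RPKM in vivo, summed to 1.83 to 19.3 in NTC and 1.75 to 10.1 in NTM blastulas, and their part in the results was not tested.

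None of the other members was called in the NT blastula. Klf5 was at 163.5, 202.8 and 241.8 RPKM in vivo and, below that range, at 110.4, 148.9 and 113.7 in NTC embryos (-0.70). Nanog was at 46.7, 113.0 and 50.2 RPKM in vivo, at 102.5, 142.3 and 113.6 in NTC (0.87, SE 0.52, adjusted p = 0.313) and at 78.7, 157.6 and 72.5 in NTM embryos. Klf4 was at 28.3, 42.2 and 44.4 RPKM in NTC (2.38, SE 1.35, adjusted p = 0.285) and at 80.0, 113.4 and 63.3 in NTM embryos (3.51, SE 1.33, adjusted p = 0.148). The in vivo libraries were at 4.57, 60.8 and 0.171 RPKM, and with both NT types pooled the difference was 2.95 (SE 0.98, adjusted p = 0.0601). Without in vivo blastula replicate 2 Klf4 was called higher in NTC (3.92, adjusted p = 0.0484) and in pooled NT embryos (4.48, adjusted p = 0.00315). It was also called in the pooled comparison on nuclear genes alone (adjusted p = 0.0478) and, in each NT type and pooled, when 1 model was fitted over all 20 groups (adjusted p of 0.000458 to 0.0149). Tfcp2l1 was at 12.7, 11.8 and 5.23 RPKM in NTC and at 11.8, 16.6 and 9.52 in NTM embryos, against 8.16, 6.36 and 4.25 in vivo. No member of 9 tested was called in NTC (1 at an unadjusted p below 0.05, Sox2, 9.46% of genes called) or in NTM blastulas (2, Sox2 and Klf4, 0.746%), and none of 9 between NTM and NTC (1, Klf4, 0% called).

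**Figure D5:**
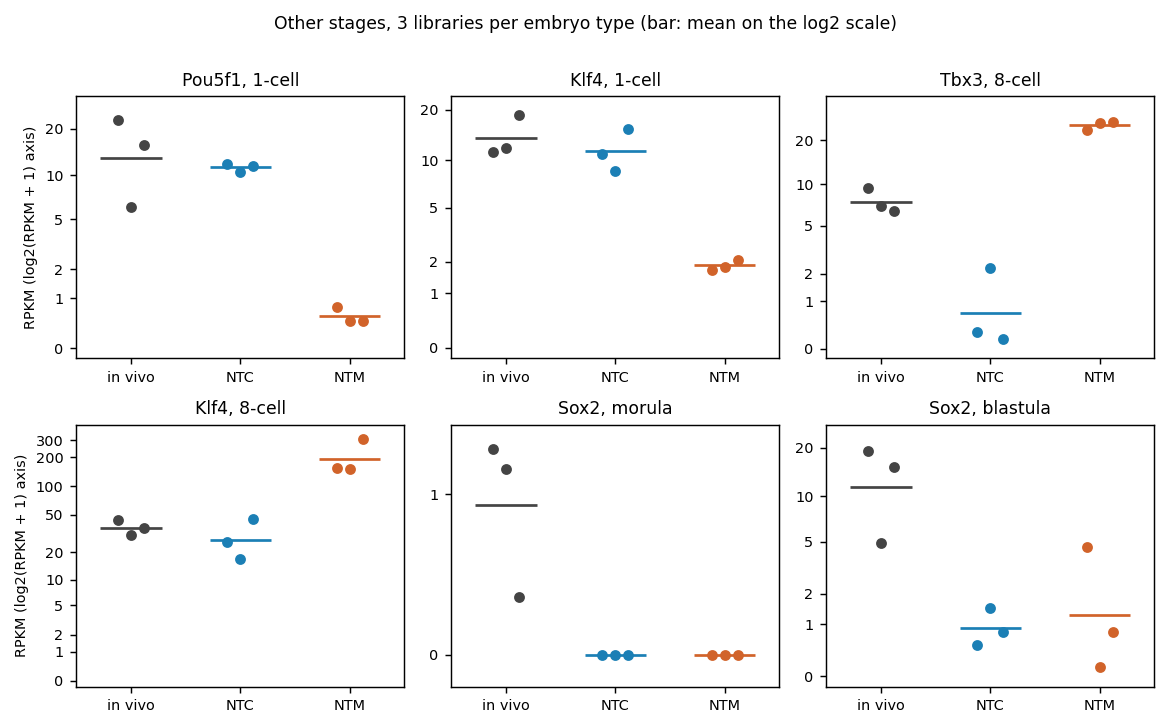
Pou5f1 and Klf4 at the 1-cell stage, Tbx3 and Klf4 at the 8-cell stage and Sox2 in the morula and blastula, in RPKM on log2(RPKM + 1) axes, with 1 point per library and a bar at the mean on that scale. The NTM libraries are low for Pou5f1 and Klf4 at the 1-cell stage and high for Tbx3 and Klf4 at the 8-cell stage, and Sox2 is at 0 in all 6 NT morulas.

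Against the donor cells several members were higher in the NT blastula. In NTC blastulas 6 of 8 members tested were higher than in CC, against 24.2% of all genes called (9.92% higher, 14.3% lower), and in NTM blastulas 4 of 9 were higher and 1 lower than in MEF, against 30.8% (11% higher, 19.8% lower). Nanog, Pou5f1, Tfcp2l1, Tbx3 and Klf4 averaged at most 0.0944 RPKM in CC. Nanog, Pou5f1, Tfcp2l1 and Klf5 averaged at most 0.0364 RPKM in MEF. These passed the filter through the blastula libraries and could only be called higher, so the counts do not measure a direction. Nanog, at 0 in every donor library, was at least 2972-fold above the level of 3 reads per CC library in NTC and at least 3226-fold above that of MEF in NTM blastulas. Pou5f1 was at least 163-fold and Tfcp2l1 at least 1662-fold above the MEF floor in NTM blastulas. In NTC blastulas Pou5f1 was 1157-fold above the 1 read found in CC (95% counting interval 207.7 to 45711) and Tfcp2l1 4696-fold above 2 reads (1300.0 to 38776). Klf5 was higher by 5.68 than in CC (SE 0.99, adjusted p = 0.00642) and by 7.07 than in MEF (SE 0.40, adjusted p = 1.76e-05). Klf4 was higher than in CC in NTC blastulas (5.14, SE 0.47, adjusted p = 0.000515) but not called against MEF in NTM blastulas (0.98, SE 0.44, adjusted p = 0.127). Klf2 was lower than in MEF in NTM blastulas (-3.30, SE 0.77, adjusted p = 0.0133), at 21.7, 3.93 and 1.60 RPKM. That call was lost without MEF replicate 3 or NTM replicate 2 (adjusted p of up to 0.0626, fold change -4.19 to -2.62), and the rise of Tbx3 in NTC blastulas (2.66, SE 0.66, adjusted p = 0.0254) without NTC replicate 2 or 3 (up to 0.0965, 2.26 to 3.28).

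Over all 20 groups, ordered by mean level, most neighbours overlapped in range. The number of the 19 neighbouring pairs that overlapped was 19 for Nanog, Klf5 and Prdm14, 18 for Sox2, Klf2, Esrrb, Tfcp2l1 and Tbx3, 17 for Pou5f1 and 16 for Klf4. Nanog was highest in NTC blastulas (mean 119.5 RPKM), then in NTM blastulas (102.9), NTC morulas (81.1) and in vivo blastulas (70.0). Sox2 had 1 gap, below the in vivo blastula (mean 13.1 RPKM) and above the NTM blastula (1.85). The gaps of Klf4 lay at the low end, below the NTC 1-cell, in vivo 4-cell and NTM 1-cell groups.

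Across the 18 embryo group means on the log2(RPKM + 1) scale, Nanog and Tfcp2l1 had the highest correlation among the members (r = 0.894), followed by Nanog and Klf5 (0.831) and Tbx3 and Tfcp2l1 (0.806). The lowest were Klf2 with Pou5f1 (-0.418) and Klf4 with Sox2 (-0.347). These points share stages and differ in depth, so the values describe the course over development only. Among 10865 genes compared in the same way, the courses most like that of Nanog were those of Plcd1 (0.948), Lrpap1 (0.942) and Zfp42 (0.942), the last a zinc finger protein known as Rex1. Those most like Sox2 were Acot2 (0.974), Fam25c (0.946) and Gm38115 (0.944), and those most like Klf5 were Calcoco2 (0.991), Rps20 (0.986) and Rps27a (0.984). For Tfcp2l1 they were 1500009L16Rik (0.968), Dap (0.95) and the trophectoderm factor Cdx2 (0.948). For Tbx3 they were Chmp4c (0.878), 1500009L16Rik (0.871) and Smpdl3a (0.866), for Prdm14 Slc39a2 (0.934), Pla2g10 (0.933) and Sycn (0.932), and for Klf2 Urm1 (0.940), Zbtb10 (0.935) and Bend3 (0.934). Klf4 (Gm10110, 0.873), Esrrb (Zfp986, 0.792) and Pou5f1 (Atxn2l, 0.764) had no gene above 0.873.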

How the data were processed

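Per the study's methods the authors reverse transcribed lysates of single embryos and donor cells, tailed and amplified the cDNA, sequenced it paired-end (molecular identifiers are not mentioned), aligned it with TopHat 2.0.12 on Bowtie2 2.2.3 and counted it with HTSeq 0.6.0 (the submitters' processing notes name Bowtie 0.12.2 and mm8). The deposited table holds RPKM values, the authors' read counts per gene scaled by exon length and library size. Of 27238 Ensembl identifiers 27013 matched a symbol, and coordinates are from GENCODE M21 (GRCm38). Reads on genes were worked back from the smallest RPKM steps, with which 74.5 to 81.1% of low values per library, and all low values checked of the members, came out whole. Intervals and floors cover counting error only.

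The values were tested as log2(RPKM + 1) with limma 3.58.1 (R 4.3.3, moderated with a trend) on the groups compared, for genes with a mean of at least 0.5 RPKM, with Benjamini-Hochberg adjustment over all of them. Differences of steps between embryo types were interaction terms. NTC and NTM embryos were compared with the same in vivo libraries. The genes named are the 10 members, of each list the 3 genes called with the largest change per direction (NT against in vivo at the 4-cell or blastula stage, or the in vivo 2-cell to 4-cell step), and per member the 3 genes with the most similar course among those with a group mean of at least 5 RPKM. Donor markers and Klf genes named in the donor comparison were chosen after their values were seen. The members, the gene lists (partners, other Klf genes, trophectoderm, primitive endoderm, post-implantation epiblast, oocyte, cumulus, fibroblast) and the tests were chosen with earlier results of these data known. The code was tested on simulated data. Nothing says that replicates came from separate cultures or animals in each group, so p-values measure the spread between these samples.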

Additional observations from a re-analysis of the deposited data

Results flagged for a closer look

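In 9 cases the step from one stage to the next differed between NT and in vivo embryos by the interaction term of limma, each on the log2(RPKM + 1) scale as NT step minus in vivo step. Both NT types share the in vivo libraries. Steps that follow each other also share the libraries of the stage between them, which enter with opposite sign. A difference at that stage alone therefore moves the step before it and the step after it in opposite directions. Nanog in NTC embryos and Tbx3 in NTM embryos were called at both such steps, with opposite signs. The 9 cases are thus not independent of each other or of the calls at single stages.

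From the 2-cell to the 4-cell stage, the NTC step was smaller for Nanog (-3.15, SE 0.64, adjusted p = 0.00620), Tbx3 (-3.53, SE 0.87, adjusted p = 0.0170) and Prdm14 (-2.05, SE 0.64, adjusted p = 0.0496), of 9 members tested and against 14.3% of genes. The NTM step was smaller for Tbx3 (-3.63, SE 0.89, adjusted p = 0.0228), against 9.91% of genes. Nanog and Tbx3 in NTC embryos kept the call without any 1 of the 12 libraries. Both were lost with 0.1 in place of 1 RPKM added before the log2 (adjusted p = 0.0542 and 0.0638), as was Tbx3 in NTM embryos (0.0558). Tbx3 in NTM embryos was lost without in vivo 2-cell replicate 2, in vivo 4-cell replicate 2 or 3 or NTM 2-cell replicate 2 (adjusted p of up to 0.0650, difference -4.12 to -3.17). Prdm14 was kept without in vivo 2-cell replicate 2 or 4-cell replicate 3 and lost without any other library (up to 0.0957, -2.36 to -1.56). Of 6 other processing settings, 1 kept the Prdm14 call (adjusted p of up to 0.129).

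From the 4-cell to the 8-cell stage, the NTC step was larger for Nanog (3.68, SE 1.07, adjusted p = 0.0291), which went from at most 0.151 to at least 7.02 RPKM in NTC embryos, and smaller for Klf4 (-4.08, SE 0.79, adjusted p = 0.00324), against 19.5% of genes. The Klf4 call held without any 1 of the 12 libraries. Nanog was lost without in vivo 4-cell replicate 2 or 3, NTC 4-cell replicate 1 or 3 or NTC 8-cell replicate 2 (up to 0.0751, 2.60 to 4.24). It was also lost with median-ratio scaling and when genes of low level were kept in (adjusted p of up to 0.112). The NTM step was larger for Tbx3 (4.16, SE 0.78, adjusted p = 0.00318) and Tfcp2l1 (2.34, SE 0.72, adjusted p = 0.0382) and smaller for Klf2 (-2.59, SE 0.59, adjusted p = 0.00972), against 18.7% of genes. Tbx3 and Klf2 held without any 1 library, and Klf2 was lost in one fit over all 20 groups (adjusted p = 0.139). Tfcp2l1 was kept without in vivo 8-cell replicate 2, NTM 4-cell replicate 3 or NTM 8-cell replicate 3 and lost without any other (up to 0.0946, 1.96 to 2.77). Of 6 other processing settings, 2 kept the Tfcp2l1 call (adjusted p of up to 0.104).

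No member was called at the other 3 steps. At the 8-cell to morula step the NTC and NTM differences had 0 and 3 members at an unadjusted p below 0.05 (0% and 0.0335% of genes called), and at the morula to blastula step 1 and 1 (0.236% and 0.647%). No group of 3 libraries is large enough for a test of single libraries that stand apart.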

How the results depend on the processing

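Of 66 calls of members over all comparisons, 43 held in every fit without 1 library, 23 were lost in at least 1, and none reversed under any setting. The number kept was 57 with a prior count of 0.1, 45 with no filter on low values, 56 with libraries scaled by the median of gene ratios, 59 on nuclear genes alone and 60 in one fit over all 20 groups. Without replicate 1, 2 or 3 of every group, 38, 27 and 31 were kept. In that last kind of fit each group has 2 libraries.

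The number of members called moved by more than 1.5 times as follows, where the cause was not tested. Across steps in NTC embryos 5 were called, with 3 under no filter, 8 in one fit and 2 to 3 without 1 replicate. Across steps in NTM embryos 4 were called, with 2 under no filter, 7 with median-ratio scaling, 8 in one fit and 0 to 2 without 1 replicate. Against in vivo embryos NTC had 5, with 3 under no filter, 9 in one fit and 2 to 3 without 1 replicate. NTM had 5, with 2 at a prior count of 0.1, 1 under no filter, 8 in one fit and 0 to 2 without 1 replicate. Pooled NT had 7, with 4 under no filter and 2 to 3 without 1 replicate. NTM against NTC had 3, with 5 in one fit and 1 to 2 without 1 replicate. MEF against CC had 1, with 2 in one fit and 0 to 1 without 1 replicate. NT blastulas against donors had 11, with 5 to 9 without 1 replicate. Differing steps in NTC numbered 5, with 2 at a prior count of 0.1, 3 under no filter, 3 with median-ratio scaling, 8 in one fit and 1 to 2 without 1 replicate. In NTM they numbered 4, with 0 to 2 without 1 replicate. The counts across in vivo steps (9) and for NT 1-cell embryos against donors (7) moved by less under every setting.

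The replicate numbers did not pair the samples, since in 0 of 38 comparisons did all 3 same-numbered pairs correlate above 0.1. With the replicate number as a block 57 of the 66 calls were kept, and 2 members in place of 5 were called in NTM against in vivo embryos.

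Over all genes, counts of calls were more than 1.5 times lower in 27 of 54 comparisons under no filter and in 36, 42 and 39 without replicate 1, 2 and 3, and more than 1.5 times higher in 39 in one fit. For NTM against in vivo 4-cell embryos 2355 genes were called, 3820 in one fit and 303 to 824 without 1 replicate. For pooled NT against in vivo blastulas 1813 were called, 2799 at a prior count of 0.1, 1010 under no filter, 3031 in one fit, 344 without replicate 1 and 0 without replicate 2. For NTC against in vivo 4-cell embryos 3189 were called, 1750 without replicate 2 and 1504 without replicate 3. With 3 libraries a group and down to 5294167 reads, a level of 0 in a shallow library still allows 3 reads.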

Other observations

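Single embryos of 1 group differed in several members at once. NTC morula replicate 2 had the least Nanog of its group (12.2 RPKM, against 89.1 and 142.1), the least Tfcp2l1 (0.554, against 13.8 and 10.3), the least Tbx3 (3.503, against 18.05 and 19.0), the least Pou5f1 (3.32, against 18.6 and 9.85) and the least Klf5 (30.8, against 75.3 and 118.6). Klf2 was not low in it, at 28.0 RPKM against 8.70 and 25.1. The library held 15687673 reads on genes with 40.4% on mitochondrial genes, against 24.8 and 31.1% in the other 2.

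The in vivo 8-cell embryos had such a library too. Replicate 3 stood at 1.38 RPKM of Nanog, against 20.5 and 22.2, and had the least Klf2 (26.7), Klf5 (125.3), Tfcp2l1 (0.420) and Sox2 (0.0838) of its group, at 5802776 reads. Klf4, at 36.5 RPKM, lay between the other 2 there. In the NTM 4-cell embryos replicate 2 had no Nanog read, the least Tbx3 (0.0309 RPKM) and Tfcp2l1 (0), and the most Klf4 (163.2). These libraries were picked out after their values were seen, and no test was made of them.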
